A study of Homo sapiens with 9 samples.

Results

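The adaptors, ubiquitin ligases and kinase through which receptors of the TNF receptor family reach non-canonical NF-kB were followed in the human B-cell line BJAB carrying either isoform of the receptor TACI. The 10 genes were taken by name: the TRAF adaptors TRAF1, TRAF2, TRAF3, TRAF4, TRAF5 and TRAF6, the cellular inhibitor of apoptosis (cIAP) genes BIRC2 and BIRC3, MAP3K14, which encodes the kinase NIK, and CAMLG, which encodes a TACI-binding protein. All 10 of 10 were found once each among the 57500 Ensembl genes of every count file, and all 10 passed the filter on low counts. The series held 9 RNA-seq libraries of unstimulated cells, 3 of BJAB given the long version of TACI (TACI long), 3 of BJAB given the short version (TACI short) and 3 of the unmodified line (control). BJAB is an established human line, given in the labels as a Burkitt lymphoma. The introduced receptor gene was called stably transfected in the titles and transduced in the design text, and the labels name no vector or promoter and do not say whether a line was 1 clone. They do not say either that the 3 replicates of a group were grown separately, and the p-values can then speak only for variation among the sequenced libraries, some or all of which may be technical.

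As background, TRAF proteins bind the cytoplasmic tails of receptors such as TACI, BAFF receptor, CD40 and BCMA. In resting B cells TRAF3 holds NIK next to TRAF2 and the cIAP ligases, which mark NIK for degradation, and receptor engagement breaks this complex up so that NIK accumulates and drives processing of the p100 precursor (NFKB2). Several of these genes are themselves known targets of NF-kB, among them BIRC3, TRAF1 and NFKB2. RNA counts report none of the protein steps.

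The bases just before the start of the genes whose RNA differed most between the lines are shown first, because the members called higher in TACI short include known NF-kB targets. Each run is the 250 bases before a RefSeq gene start (GRCh38.p14, 5′ to 3′ on the strand of the gene), and capitals mark 10-base matches on either strand to the NF-kB consensus site (the kB site). BIRC3 lies at chr11:102317234-102317483 (plus strand), TRAF3 at chr14:102777199-102777448 (plus), TRAF1 at chr9:120929172-120929421 (minus), MAP3K14 at chr17:45317021-45317270 (minus) and BIRC2, the neighbour of BIRC3, which was not called in any comparison, at chr11:102346964-102347213 (plus).
BIRC3: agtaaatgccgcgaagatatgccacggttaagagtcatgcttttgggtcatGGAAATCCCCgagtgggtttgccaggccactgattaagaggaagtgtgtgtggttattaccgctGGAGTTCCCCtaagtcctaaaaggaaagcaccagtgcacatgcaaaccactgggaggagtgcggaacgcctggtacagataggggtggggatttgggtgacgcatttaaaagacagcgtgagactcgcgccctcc
TRAF3: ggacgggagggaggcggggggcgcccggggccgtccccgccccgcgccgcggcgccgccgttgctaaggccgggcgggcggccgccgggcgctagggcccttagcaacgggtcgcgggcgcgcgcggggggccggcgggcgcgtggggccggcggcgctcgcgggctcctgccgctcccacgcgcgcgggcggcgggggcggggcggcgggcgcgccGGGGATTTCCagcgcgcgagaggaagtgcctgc
TRAF1: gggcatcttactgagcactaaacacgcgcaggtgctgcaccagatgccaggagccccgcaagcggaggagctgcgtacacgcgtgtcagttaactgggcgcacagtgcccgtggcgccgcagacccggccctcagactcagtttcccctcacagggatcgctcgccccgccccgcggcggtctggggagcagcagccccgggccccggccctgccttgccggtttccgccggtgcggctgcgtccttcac
MAP3K14: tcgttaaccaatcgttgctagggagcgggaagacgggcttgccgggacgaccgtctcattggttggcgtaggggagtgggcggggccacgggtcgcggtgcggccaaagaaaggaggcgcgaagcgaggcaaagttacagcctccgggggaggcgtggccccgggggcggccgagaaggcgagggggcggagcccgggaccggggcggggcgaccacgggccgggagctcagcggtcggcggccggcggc
BIRC2: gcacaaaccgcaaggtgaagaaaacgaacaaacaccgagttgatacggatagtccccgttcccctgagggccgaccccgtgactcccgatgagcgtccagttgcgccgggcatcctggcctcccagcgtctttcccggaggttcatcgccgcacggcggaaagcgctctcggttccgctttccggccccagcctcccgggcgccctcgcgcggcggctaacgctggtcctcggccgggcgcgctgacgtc

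All 10 members matched by symbol to the RefSeq promoter table, with 15 start sites between them, and 2 of these 15 windows held a kB consensus match, against 9.96% of the 35116 windows of all genes, so that the members' share was near that of all genes. BIRC3 held 2 matches, both read on the strand opposite to the gene: GGGGATTTCC, 199 to 190 bases before the start, and GGGGAACTCC, 135 to 126 bases before it. TRAF3 held 1 match on its own strand, 33 to 24 bases before the start, and its letters were the same GGGGATTTCC. Of all windows 0.108% contain these letters on either strand. The form was counted because it was found here, and any 1 form is rarer than the whole consensus, so this share is no measure of chance. No consensus match lay in the windows of TRAF1, MAP3K14 or BIRC2 (the first of 3 TRAF1 and 2 BIRC2 start sites is printed, and the others held none either). The looser pattern GGGNNNNNCC was found in 12 of the 15 windows and in 54.4% of all windows. A match is a description of these letters and says nothing of binding, and sites farther away were not searched.

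Library totals ran from 40322136 to 50079203 counts. TACI short replicates 2 and 3 stood apart, with 32882 and 32209 genes holding at least 1 count, against 24307 to 25938 genes in the other 7 libraries. The introduced gene TNFRSF13B stood at 691, 704 and 738 CPM (counts per 1000000 counts of the library) in TACI long, at 2964, 2965 and 2655 CPM in TACI short and at 28.8, 15.2 and 14.6 CPM in control, so that isoform and amount of TACI RNA differ together between the lines and cannot be told apart. The 8 B-cell markers summed to between 3065 and 3436 CPM in the TACI lines, against 3775 to 3899 CPM in control, and all 8 had counts in every library. Myeloid markers (10 genes) summed to 15.6 to 29.8 CPM in TACI long and to 28.8 CPM in TACI short replicate 1, but to 128 and 125 CPM in TACI short replicates 2 and 3, against 11.6 to 22.3 CPM in control. CSF1R made up 20.3 CPM of that sum in TACI short replicate 1 and 57.8 and 56.7 CPM in replicates 2 and 3, and S100A8 was at 0 counts in all 9 libraries. T and NK cell markers stayed at 4.04 CPM in sum or lower, and the 7 epithelial and fibroblast markers summed to 83.1 to 120.3 CPM. In bulk RNA, fewer cells of a type and less RNA per cell cannot be told apart.

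Fold changes come from an edgeR quasi-likelihood fit of all 16672 tested genes over all 9 libraries, with Benjamini-Hochberg adjustment and a threshold of 0.05 on the adjusted p. The fit scales libraries by TMM factors, which lay between 0.965 and 0.98 in TACI long, 1.03 and 1.10 in TACI short and 0.962 and 0.979 in control. Fitted log2 fold changes of TACI short therefore lie lower than those from the printed CPM, which makes rises smaller and falls larger. With library totals alone the median gene moved by 0.16 on the log2 scale in TACI short against control, in place of 0.03, and 6873 genes were called higher and 3771 lower, in place of 5256 and 5179. In TACI short against TACI long the median was 0.18, in place of 0.05, and there were 7216 higher and 4345 lower calls, in place of 5870 and 5604.

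In TACI short against control, 6 of the 10 members rose (BIRC3, TRAF1, MAP3K14, TRAF3, TRAF4 and CAMLG) and 2 fell (TRAF5 and TRAF6), where 31.5% of all tested genes were called higher and 31.1% lower. TACI long against control gave 1 rise (BIRC3) and 3 falls (TRAF5, TRAF1 and TRAF3), where 25.2% of all tested genes were called higher and 25.9% lower, so that the share of falls was near that of all genes. Set directly against TACI long, TACI short had 7 of 10 members higher and none lower, beside 35.2% higher and 33.6% lower of all genes. At an unadjusted p under 0.05, 1 member (TRAF6) was lower in that comparison, and limma-voom called 1 and DESeq2 0. The median log2 fold change over the 10 members was -0.06 for TACI long and 0.32 for TACI short against control, and 0.39 for TACI short against TACI long, while the medians of all genes were -0.0029, 0.03 and 0.05. Without TACI short replicates 2 and 3 that group holds 1 library and has no spread of its own. Calls in that setting, where given below, use the spread of the other groups. The median log2 fold change of the members was then 0.41 for TACI short against control and 0.47 against TACI long. The libraries of the 2 groups did not overlap in CPM for 6 members in TACI long against control, 7 in TACI short against control and 7 in TACI short against TACI long, beside 60.7%, 66.4% and 71.6% of all genes.

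**Figure D1:**
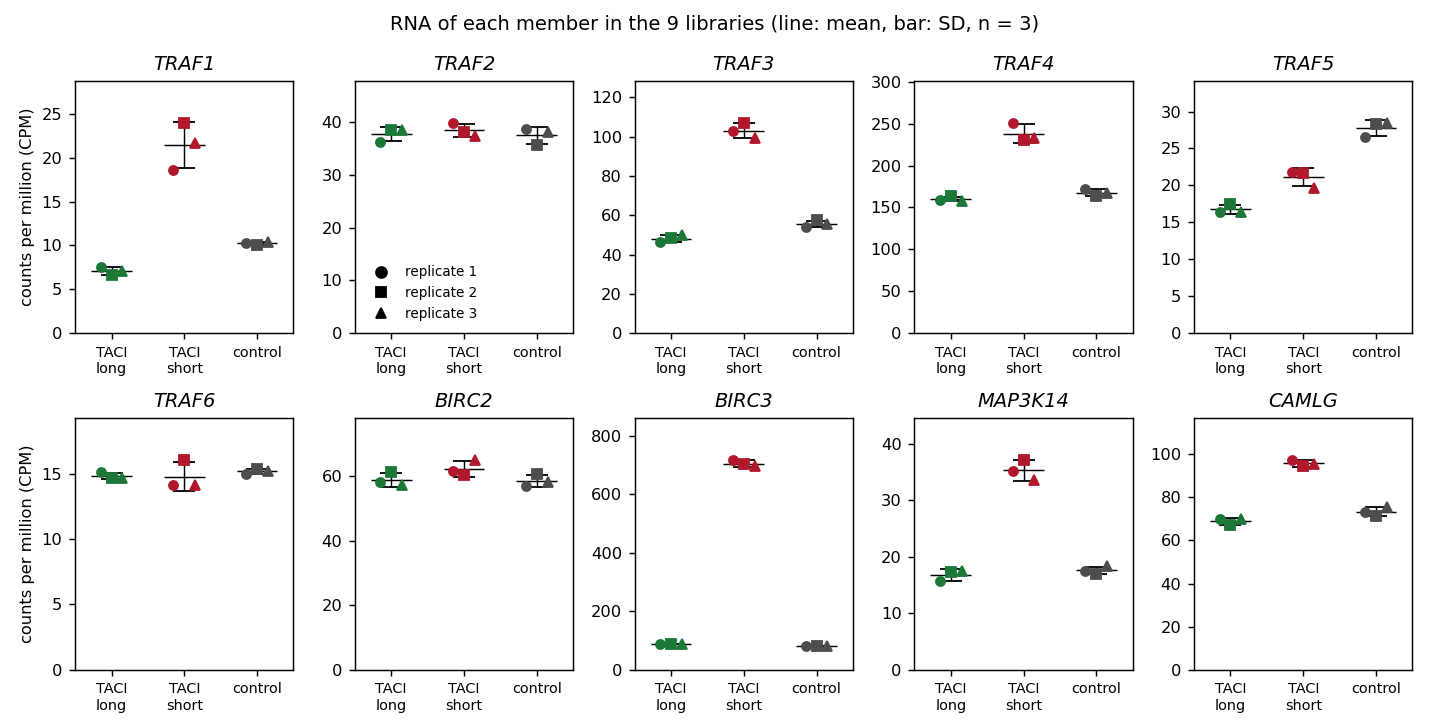
CPM of each of the 10 genes in each library (y axis, from 0; 1 panel a gene), with TACI long, TACI short and control from left to right, the replicate number as the symbol, the mean as a line and the SD as a bar (n = 3). BIRC3 is at 695 to 718 CPM in TACI short, against 80.5 to 82.6 CPM in control, TRAF5 is highest in control, and TRAF2 lies at 35.7 to 39.8 CPM in all 9 libraries.

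**Figure D2:**
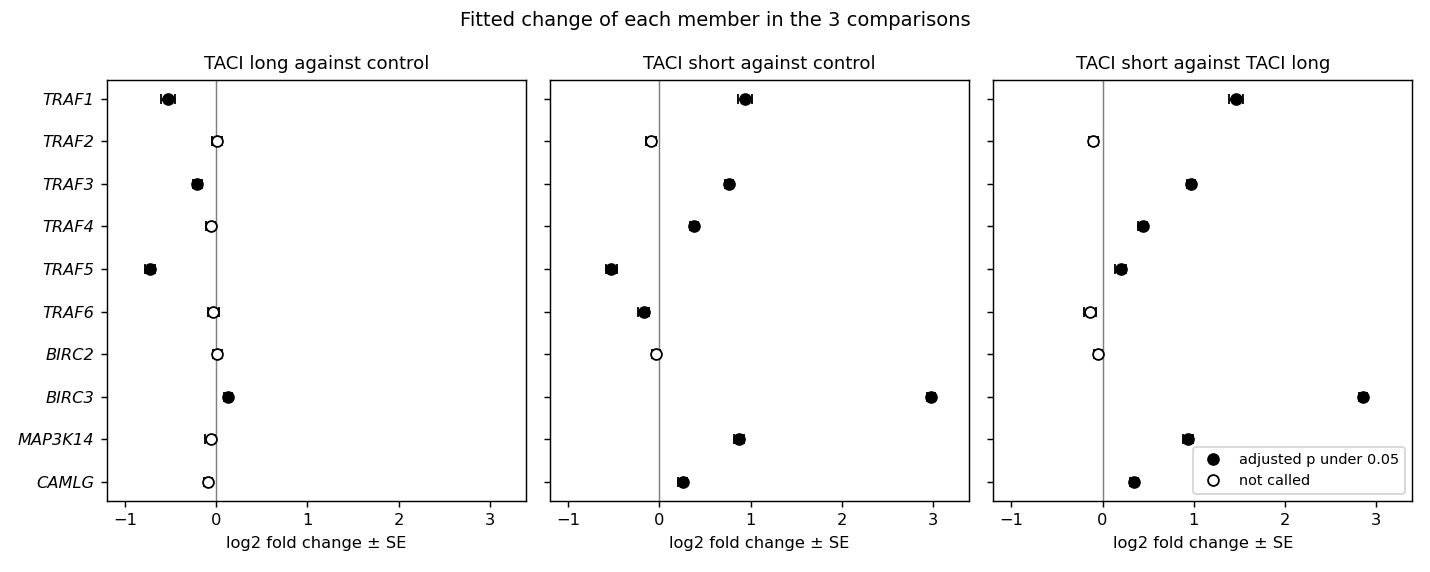
Fitted log2 fold change with its SE (x axis) for each gene in the 3 comparisons, filled where the adjusted p is under 0.05. BIRC3 is at 2.98 in TACI short against control and at 0.13 in TACI long against control, and TRAF5 is below 0 in both.

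TRAF3 is the adaptor that recruits NIK to its ligases and so limits non-canonical signalling (ENSG00000131323, hg38 chromosome 14, 102777476 to 102911500, plus strand). It had 46.3, 48.4 and 49.7 CPM in TACI long, 103, 107 and 99.2 CPM in TACI short and 54.0, 57.4 and 55.5 CPM in control. Each TACI short library thus held more TRAF3 RNA than any control, and each TACI long library less. The log2 fold change against control was 0.76 ± 0.04 (SE) in TACI short (edgeR adjusted p = 8.33e-13) and -0.21 ± 0.05 in TACI long (edgeR adjusted p = 0.000527). Between the lines the difference was 0.97 ± 0.05 (edgeR adjusted p = 6.87e-15), and none of the 19 alternative settings ended any of these 3 calls.

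TRAF2, the adaptor that brings the cIAPs to TRAF3 and NIK (ENSG00000127191, chromosome 9, 136881912 to 136926607, plus strand), had 36.2, 38.4 and 38.5 CPM in TACI long, 39.8, 38.2 and 37.3 CPM in TACI short and 38.7, 35.7 and 38.2 CPM in control. The 3 groups overlapped, and no comparison was called with all 9 libraries. Its fitted log2 fold changes were 0.0072 ± 0.05 in TACI long and -0.09 ± 0.05 in TACI short against control, with edgeR adjusted p = 0.929 and 0.12. Without TACI short replicate 1 the value of TACI short was called, at -0.15 (edgeR adjusted p = 0.015), as it was without control replicate 2 (-0.15, edgeR adjusted p = 0.041), while scaling by library totals put it at 0.04. Against TACI long the value of TACI short was -0.10 ± 0.05 (edgeR adjusted p = 0.089), and -0.16 without TACI short replicate 1 (edgeR adjusted p = 0.00733). Per kilobase of exon, the level of TRAF3 was 0.566 ± 0.00761 times that of TRAF2 in TACI long, 1.19 ± 0.0483 times in TACI short and 0.659 ± 0.0482 times in control (SD, n = 3). A ratio within a library does not depend on the scaling. Per kilobase it puts TRAF3 RNA above TRAF2 RNA in each TACI short library and below it in the other 6. That order rests on the exon lengths used, 8263 bases for TRAF3 and 3663 for TRAF2. In CPM alone TRAF3 was above TRAF2 in all 9 libraries.

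TRAF1 has no RING domain, unlike the other TRAF adaptors, and works together with TRAF2 (ENSG00000056558, chromosome 9, 120902393 to 120929173, minus strand). It stood at 7.54, 6.60 and 7.09 CPM in TACI long, at 18.7, 24.0 and 21.7 CPM in TACI short and at 10.3, 10.01 and 10.4 CPM in control. The 3 groups were fully apart, in the order TACI short, control, TACI long. It rose by 0.94 ± 0.08 on the log2 scale in TACI short and fell by 0.53 ± 0.08 in TACI long (edgeR adjusted p = 2.3e-10 and 6.05e-06), and between the lines it was 2.76-fold higher in TACI short (edgeR adjusted p = 8.93e-14). Its level in TACI short was lowest in replicate 1, the library with 28.8 CPM of myeloid markers, and higher in replicates 2 and 3, with 128 and 125 CPM, and the part of these markers in TRAF1 was not tested. With replicate 1 as the only TACI short library the log2 fold change of TRAF1 against control was 0.78.

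TRAF5 is a close relative of TRAF2 that also binds CD40-type receptors (ENSG00000082512, chromosome 1, 211326615 to 211374946, plus strand). It had 16.4, 17.5 and 16.4 CPM in TACI long, 21.8, 21.7 and 19.7 CPM in TACI short and 26.6, 28.3 and 28.4 CPM in control. Both lines lay below every control, and TACI long below every TACI short library. It fell by 0.73 ± 0.06 on the log2 scale in TACI long and by 0.53 ± 0.06 in TACI short (edgeR adjusted p = 2.4e-10 and 2.44e-08). These were the only falls past the threshold in both lines among the 10 members, in comparisons that share the 3 controls. TACI short was 0.20 ± 0.06 above TACI long (edgeR adjusted p = 0.00422), but not past the threshold without TACI long replicate 3 (edgeR adjusted p = 0.0502).

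TRAF4, an adaptor best known from epithelial and developing tissue (ENSG00000076604, chromosome 17, 28743984 to 28750958, plus strand), was the most abundant TRAF here. It reached 159, 163 and 158 CPM in TACI long, 251, 230.5 and 232 CPM in TACI short and 172, 164 and 167 CPM in control. The TACI short libraries stood apart from the other 6, and TACI long lay just under control with groups that did not overlap. Its rise in TACI short was 1.30-fold (log2 0.38 ± 0.05, edgeR adjusted p = 2.84e-07), and the value of TACI long, -0.06 ± 0.05, was not called (edgeR adjusted p = 0.299). Antisense genes share 777 of its 4596 exon bases, and they held at most 9 counts in any library. The library kit does not keep the strand, so reads in the shared bases cannot be assigned to TRAF4 or to these genes.

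TRAF6, the adaptor of Toll-like receptor and interleukin-1 receptor signalling as well as CD40 (ENSG00000175104, chromosome 11, 36487027 to 36510272, minus strand), hardly varied. It had 15.1, 14.7 and 14.7 CPM in TACI long, 14.2, 16.1 and 14.1 CPM in TACI short and 15, 15.4 and 15.2 CPM in control. TACI short replicate 2 was the highest of all libraries while the other 2 of its group were the lowest, so the groups overlapped. It fell by 0.17 ± 0.06 in TACI short against control (edgeR adjusted p = 0.0191), and this call was lost under 5 of 19 alternatives. The fall was 0.04 with library totals (edgeR adjusted p = 0.574), 0.09 with upper-quartile factors (edgeR adjusted p = 0.202) and 0.13 without TACI short replicate 3 (edgeR adjusted p = 0.0858), and at log2 fold changes of -0.13 and -0.19 the 2 other filters on low counts gave edgeR adjusted p = 0.0532 and 0.0569.

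BIRC3 encodes cIAP2, a ubiquitin ligase that also protects cells from death signals (ENSG00000023445, chromosome 11, 102317450 to 102339403, plus strand). The 3 TACI long libraries had 89.0, 89.6 and 89.0 CPM, the TACI short libraries 718, 702 and 695 CPM and the controls 82.6, 81.6 and 80.5 CPM. The spread within each group was small beside the distance of TACI short from the rest. It rose 7.90-fold in TACI short against control and 7.22-fold against TACI long (log2 2.98 ± 0.04 and 2.85 ± 0.04, edgeR adjusted p = 1.39e-23 and 1.91e-23), the greatest change of any member. In TACI long it rose by 0.13 ± 0.04 on the log2 scale (1.09-fold, edgeR adjusted p = 0.014). That small rise was not called without TACI long replicate 1 or 3 or control replicate 2 or 3 (edgeR adjusted p = 0.0851, 0.0944, 0.0984 and 0.123), nor without a filter on low counts (edgeR adjusted p = 0.0738).

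BIRC2 encodes cIAP1, the ligase that lies next to BIRC3 in the genome and acts with it on NIK (ENSG00000110330, chromosome 11, 102347211 to 102378670, plus strand). Its levels were 58.1, 61.2 and 57.1 CPM in TACI long, 61.4, 60.1 and 65.0 CPM in TACI short and 56.8, 60.5 and 58.1 CPM in control. The groups overlapped in all 3 comparisons. Log2 fold changes were 0.01 ± 0.05 in TACI long and -0.04 ± 0.05 in TACI short against control (edgeR adjusted p = 0.885 and 0.511), and the second became 0.09 with library totals. Per kilobase of exon the BIRC3 level was 0.915 ± 0.0293 times the BIRC2 level in TACI long, 6.84 ± 0.345 times in TACI short and 0.842 ± 0.032 times in control (SD, n = 3). Per kilobase, the more abundant cIAP RNA was therefore BIRC2 in all 6 libraries of TACI long and control and BIRC3 in all 3 of TACI short. The place of BIRC2 above BIRC3 rests on the exon lengths used, 4532 bases for BIRC2 and 7518 for BIRC3. In CPM alone BIRC3 was above BIRC2 in every library.

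MAP3K14 encodes NIK, the kinase that activates IKK-alpha in the non-canonical pathway (ENSG00000006062, chromosome 17, 45263121 to 45317040, minus strand). TACI long had 15.6, 17.4 and 17.5 CPM, TACI short 35.3, 37.2 and 33.5 CPM and control 17.4, 17.0 and 18.3 CPM. TACI short stood above all other libraries, and TACI long and control overlapped. The rise in TACI short was 1.83-fold against control and 1.91-fold against TACI long (log2 0.88 ± 0.06 and 0.94 ± 0.06, edgeR adjusted p = 5.42e-12 and 1.09e-12), and TACI long was at -0.06 ± 0.06 against control (edgeR adjusted p = 0.429). MAP3K14-AS1, on the other strand, shares 711 of the 5852 exon bases, and the library kit does not keep the strand, so reads there cannot be assigned to 1 of the 2 genes. MAP3K14-AS1 had 84, 89 and 64 counts in TACI long, 127, 147 and 156 in TACI short and 64, 74 and 63 in control, against 662 to 793, 1500 to 1679 and 741 to 856 counts of MAP3K14 in the same groups.

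TRAF3 and MAP3K14, the brake and the kinase it holds, were thus both higher in TACI short. Per kilobase of exon TRAF3 stood at 2.02 ± 0.0642 times MAP3K14 in TACI long, 2.07 ± 0.0294 times in TACI short and 2.24 ± 0.129 times in control (SD, n = 3). The ratio lay between 2.04 and 2.10 in TACI short and between 2.14 and 2.39 in control, a far smaller difference than that of either gene alone.

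CAMLG encodes CAML, a membrane protein that binds the cytoplasmic tail of TACI and that also serves, with GET1, as the receptor for tail-anchored proteins at the endoplasmic reticulum (ENSG00000164615, chromosome 5, 134738501 to 134752160, plus strand). It had 69.7, 67.1 and 69.8 CPM in TACI long, 97.5, 94.4 and 95.4 CPM in TACI short and 73.4, 71.2 and 75.6 CPM in control. The 3 groups did not overlap. Its rise in TACI short was 1.19-fold against control and 1.27-fold against TACI long (log2 0.26 ± 0.05 and 0.35 ± 0.05, edgeR adjusted p = 3.93e-05 and 5.06e-07). The difference of TACI long from control, -0.09 ± 0.05, was not called (edgeR adjusted p = 0.11), although it passed with library totals (edgeR adjusted p = 0.0345), with upper-quartile factors (edgeR adjusted p = 0.0362) and with the filter at 1 CPM in 3 libraries (edgeR adjusted p = 0.0432).

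Levels of different genes were compared per kilobase of exon. In TACI long the order was TRAF4 (34.9 CPM per kilobase), CAMLG (31.0), BIRC2 (13.0), BIRC3 (11.9), TRAF2 (10.3), TRAF3 (5.83), TRAF6 (3.05), MAP3K14 (2.88), TRAF5 (1.86) and TRAF1 (1.10), and no 2 neighbours overlapped between libraries. TACI short had BIRC3 first (93.7 CPM per kilobase), before TRAF4 (51.8), CAMLG (43.1), BIRC2 (13.7), TRAF3 (12.5), TRAF2 (10.5), MAP3K14 (6.04), TRAF1 (3.32), TRAF6 (3.04) and TRAF5 (2.34), and only TRAF1 and TRAF6 overlapped. Control ran from TRAF4 (36.4 CPM per kilobase) over CAMLG (33.1), BIRC2 (12.9), BIRC3 (10.8), TRAF2 (10.2) and TRAF3 (6.73) to TRAF6 (3.12), TRAF5 (3.08), MAP3K14 (3.01) and TRAF1 (1.59), where TRAF6, TRAF5 and MAP3K14 overlapped. Per kilobase, BIRC3 thus stood below BIRC2 in TACI long and control and above all other members in TACI short, and TRAF3 passed TRAF2. That BIRC3 lay below BIRC2, and TRAF3 below TRAF2, in TACI long and control rests on the exon lengths used.

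**Figure D3:**
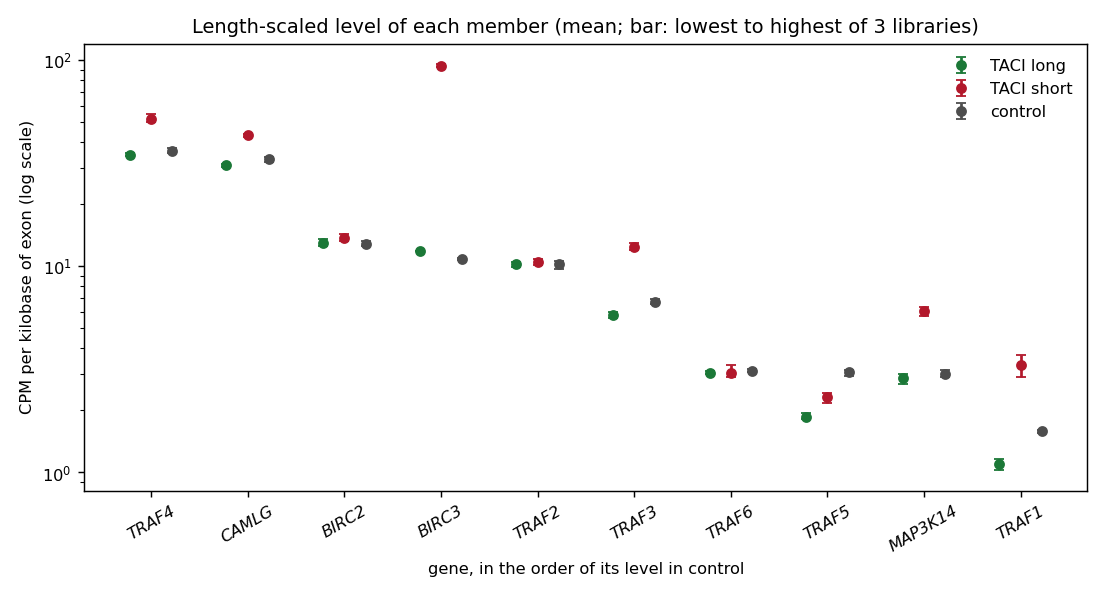
CPM per kilobase of exon (y axis, log scale) of the 10 genes, ordered on the x axis by their level in control, for TACI long, TACI short and control. Points are means and bars run from the lowest to the highest of 3 libraries, and BIRC3 is at 93.7 in TACI short, against 10.8 in control.

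For the 4 members whose group means spanned at least 1 on the log2(CPM + 0.5) scale, the genes of most similar profile were sought among 10308 other protein-coding genes, by the root mean square distance of mean-centred profiles over the 9 libraries. Nearest to BIRC3 came BCL3 (distance 0.08), DUSP22 (0.10) and NEDD4L (0.14). BCL3, an IkB-family co-activator of NF-kB, averaged 3.17 CPM in TACI long, 29.1 CPM in TACI short and 3.12 CPM in control. The genes nearest to TRAF1 were CD1D (0.08), PTK2B (0.10) and NFKB1 (0.10), which encodes the p105 precursor of p50 and averaged 21.7 CPM in TACI long, 67.2 CPM in TACI short and 33.1 CPM in control. TRAF3 had KIF1C (0.04), GRN (0.05) and SYNGR2 (0.05) as its nearest, and MAP3K14 had CTDSP2 (0.04), SIMC1 (0.05) and ACO1 (0.05). The likeness is a description of 9 libraries in 3 groups and carries no test.

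The other genes of the pathway were read from lists by role, and each count stands beside the shares of all tested genes, 31.5% higher and 31.1% lower in TACI short against control and 25.2% higher and 25.9% lower in TACI long against control. Of 9 tested NF-kB subunits and inhibitors, 6 rose and 1 fell in TACI short against control, and 2 rose and 5 fell (3 by DESeq2) in TACI long (median log2 fold changes 0.89 and -0.11). NFKB2, the p100 precursor on which NIK acts, averaged 53.8 ± 1.41 CPM in TACI long, 293 ± 14.4 CPM in TACI short and 72.8 ± 2.52 CPM in control (SD, n = 3), and was called in the same direction as TRAF1 and TRAF3 in both lines. RELB, the partner of p52, rose 2.64-fold in TACI short and had a log2 fold change of 0.08 ± 0.05 in TACI long (edgeR adjusted p = 0.18). The 10 tested NF-kB target genes all rose in TACI short against control, 9 of 10 by limma-voom and 9 of 11 without TACI short replicates 2 and 3, while 6 of 10 fell in TACI long. CFLAR, a target that blocks caspase-8, rose 2.38-fold in TACI short, and CCR7 fell 9.39-fold in TACI long.

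Among 14 TRAF partners and regulators, 7 rose and 4 fell in TACI short against control, and 4 rose and 6 fell in TACI long. The 4 falls in TACI short and the 4 rises in TACI long are near the shares of all genes. TANK, a TRAF-binding regulator of IKK-related kinases, averaged 32.5 ± 1.22 CPM in TACI long, 89.8 ± 1.89 CPM in TACI short and 38.1 ± 0.859 CPM in control, and TIFA, which joins TRAF6 to its activators, 44.6 ± 0.777, 120 ± 1.98 and 52.2 ± 1.18 CPM in the same groups (SD, n = 3). Both rose in TACI short (2.15-fold and 2.10-fold) and fell in TACI long (by 0.23 on the log2 scale each), as TRAF1 and TRAF3 did. With library totals the 14 genes gave 7 rises and 1 fall in TACI short, and without TACI short replicates 2 and 3 there were 6 rises and 2 falls.

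Of 6 deubiquitinases and their adaptors, 3 rose in TACI short against control (5 with library totals or upper-quartile factors) and 2 in TACI long. TNFAIP3, which encodes the NF-kB inhibitor A20, had 3.46 ± 0.702 CPM in TACI long, 42.4 ± 2.5 CPM in TACI short and 3.48 ± 0.695 CPM in control (SD, n = 3), and OTUD7B, which removes ubiquitin from TRAF3, was called in neither line (log2 fold changes -0.09 ± 0.06 and -0.07 ± 0.06). The 13 TAK1, IKK and LUBAC genes had 3 rises and 7 falls in TACI short and 4 of each in TACI long, of which the 3 rises and the 4 of each are near the shares of all genes. CHUK, the IKK-alpha kinase downstream of NIK, fell by 0.38 ± 0.05 in TACI short (edgeR adjusted p = 1.96e-07). That split rested on the scaling: library totals gave 6 rises and 4 falls and upper-quartile factors the same, with CHUK lower in each, and without TACI short replicates 2 and 3 there were 3 of each.

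Of 6 genes that act with CAMLG in tail-anchored protein insertion, 5 fell in TACI short against control, with library totals too, whereas CAMLG itself rose. GET3, the ATPase that delivers such proteins, fell by 0.77 ± 0.05 on the log2 scale (edgeR adjusted p = 3.71e-12). GET1, the membrane partner of CAMLG, averaged 49.2 ± 1.36 CPM in TACI long, 36.5 ± 0.701 CPM in TACI short and 32.9 ± 0.944 CPM in control (SD, n = 3). It rose by 0.58 ± 0.05 on the log2 scale in TACI long, where CAMLG was not called, and was not called in TACI short (log2 fold change 0.02 ± 0.05). In TACI long, 1 of these 6 genes rose and 2 fell.

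**Figure D4:**
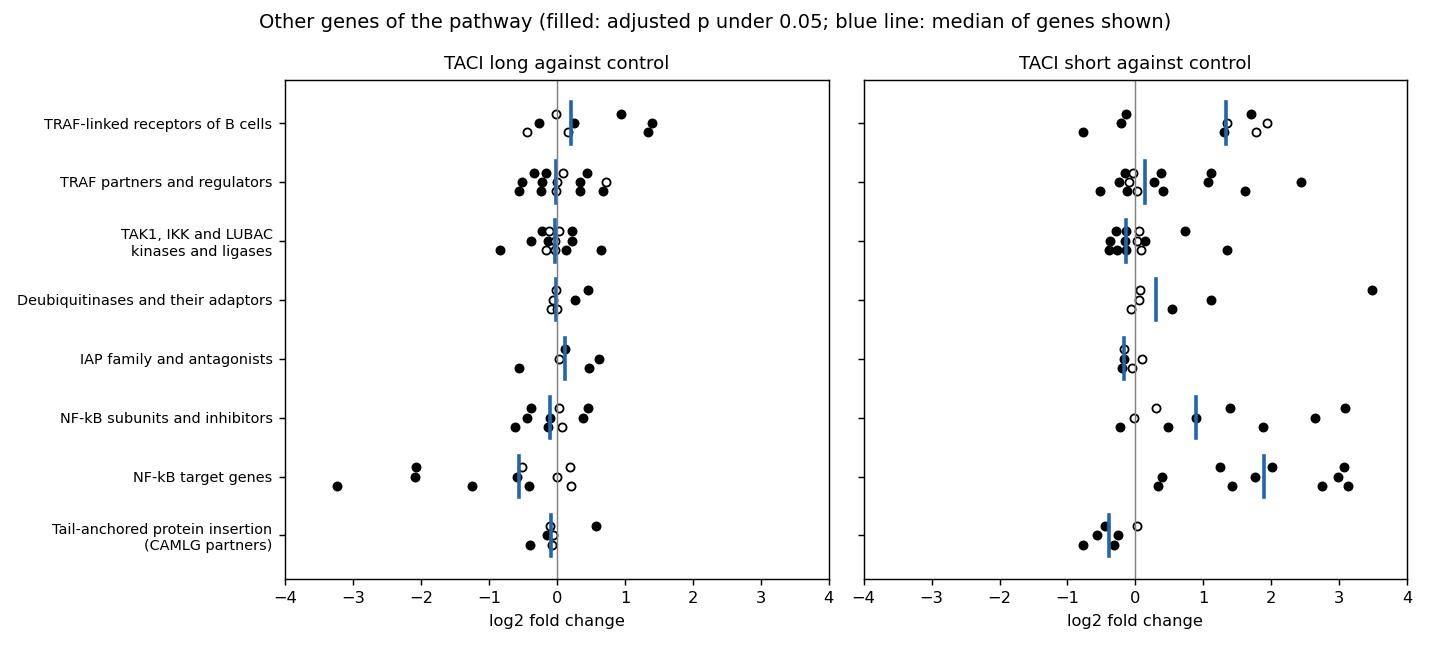
Log2 fold change (x axis) of the other pathway genes by list, for TACI long against control (left panel) and TACI short against control (right panel), with 1 point a gene, filled where the adjusted p is under 0.05, and the median of the genes shown as a blue line; the introduced TNFRSF13B is left out. NF-kB target genes have a median of 1.89 in TACI short and of -0.56 in TACI long.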

How the data were processed

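Polyadenylated RNA was sequenced from 9 BJAB libraries in 3 groups of 3. The deposited values are raw counts per gene. Per the submitters' processing notes FastQC, STAR 2.4.0h, HTSeq and hg38 were used, while the file headers are laid out as featureCounts writes them. Annotation release, strand setting and filters are not given in the sources used here, and the Nextera XT kit of the labels' protocol does not keep the strand.

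Gene symbols came from a name table and GENCODE 29, which together cover 56898 of 57500 IDs. Genes were kept by filterByExpr (minimum count 10, minimum total 15; 16672 genes), given TMM scaling factors, and all 9 libraries entered 1 model tested by robust quasi-likelihood in edgeR (version 4.0.16, under R 4.3.3), with 6 degrees of freedom left for the residual and Benjamini-Hochberg adjustment over all genes. Standard errors are the absolute log2 fold change over the square root of F. The scripts were tested on simulated data. Printed CPM use library totals. No 2 libraries of a group agreed within sampling noise (chi-square per degree of freedom 2.31 to 16.2).

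The members, lists and tests were chosen with earlier results of these data known. Named are all members and up to 4 called genes of each list by adjusted p in each comparison. Named too are the 3 genes of most similar profile of each member that spans at least 1 on the log2 scale. TNFRSF1B, OTUD7B, CSF1R, S100A8, EPCAM, COL1A1, COL1A2, DCN, IER3 and MAP3K14-AS1 were added outside this rule, with their values seen. Alternatives were DESeq2 1.42.0, limma-voom 3.58.1, other scalings and filters, the 2 groups alone, the replicate block and libraries left out. Deviations from the group mean correlated at 0.18 to 0.43 between same-numbered TACI short and control libraries. For same-numbered libraries of the other pairs of groups the values were -0.27 to 0.11. Pairs with different numbers reached 0.23 (TACI short 2 and control 3) and 0.35 (TACI long 3 and TACI short 1), and others fell as low as -0.39. No label says what a number shares. Figures used matplotlib 3.10.9.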

Additional observations from a re-analysis of the deposited data

How the results depend on the processing

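Of 30 results (10 genes in 3 comparisons), 19 kept their direction and side of the threshold under all 19 alternatives. Of the recomputed values, 536 kept both, 11 lost a call, 11 gained one and 12 changed sign, all 12 of TRAF2 and BIRC2, which were not called. With library totals BIRC2 was at 0.0918 in TACI short against control and 0.0829 against TACI long, and TRAF2 at 0.0351 and 0.0289. Upper-quartile factors gave BIRC2 0.0447 and 0.0419, and TRAF2 -0.00046 in TACI long against control. With 1 library left out, TRAF2 in TACI long against control ranged from -0.0338 to 0.0371, BIRC2 from -0.0038 to 0.0284, and BIRC2 in TACI short against control from -0.0669 to 0.0156. The cause of these changes was not tested beyond the scaling. All-gene calls stayed within 1.5 times under every alternative. With the replicate block, members called were 4, 8 and 7 as without it, and 8620, 10501 and 11495 genes were called. The block changed no member's call. Same-numbered TACI short and control libraries had correlated deviations (0.18 to 0.43), unlike those of TACI long (-0.27 to 0.11). Pairs with different numbers also reached 0.23 (TACI short 2 and control 3) and 0.35 (TACI long 3 and TACI short 1), and others fell as low as -0.39. Whether a number marks anything shared was not tested. CPM on TMM-adjusted library sizes moved by more than the SD for several members, BIRC3 in TACI short to a mean of 665 CPM. A lone TACI short library was assumed to vary like the other groups.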

Other observations

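Some receptors and further IAP genes also differed between the lines. CD40, a receptor that recruits TRAF2, TRAF3 and TRAF6, averaged 35.5 ± 0.694 CPM in TACI long, 106 ± 2.25 CPM in TACI short and 29.9 ± 0.939 CPM in control (SD, n = 3), and rose in both lines (1.19-fold and 3.26-fold in the edgeR quasi-likelihood fit). CD27 and TNFRSF17 (BCMA) rose in TACI long by 0.95 ± 0.05 and 1.40 ± 0.10 on the log2 scale, and TNFRSF17 fell by 0.78 ± 0.11 in TACI short. Of 9 tested receptors 5 rose and 1 fell in TACI long, beside 25.2% higher and 25.9% lower of all tested genes. In TACI short 3 rose and 3 fell, near the 31.5% higher and 31.1% lower of all tested genes. The introduced TNFRSF13B is 1 of the 9 and 1 of the rises in each line, as the design fixes. It also enters the medians below. In TACI short DESeq2 called 6 higher and 3 lower, library totals and upper-quartile factors each gave 4 and 1, and leaving out TACI short replicates 2 and 3 gave 3 and 1. Over the 9 receptors the log2 fold change had a median of 1.35 in TACI short, and of -0.09 when those replicates were left out. TNFRSF1B, the receptor for which TRAF2 is a main adaptor, had 28.6 and 26.2 CPM in TACI short replicates 2 and 3, the libraries with more myeloid marker RNA, and 6.5 CPM in the first one, against 5.67 to 8.55 CPM in control; the part of these markers in its level was not tested.

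In the list of IAP family genes and IAP antagonists, BIRC5 (survivin) and BIRC6 rose in TACI long (1.53-fold and 1.39-fold). XIAP rose by 0.12 ± 0.05 there (edgeR adjusted p = 0.0419), with CPM that overlapped those of control, and fell by 0.16 ± 0.05 in TACI short. Of 5 tested genes, 3 rose (2 by DESeq2) and 1 fell in TACI long, beside 25.2% higher and 25.9% lower of all tested genes. The fall was that of HTRA2, an IAP antagonist and not an IAP gene, by 0.55 ± 0.05 on the log2 scale. In TACI short none rose and 2 fell (XIAP, and HTRA2 by 0.20 ± 0.05), beside 31.5% higher and 31.1% lower of all tested genes. There 3 fell at an unadjusted p under 0.05, and DESeq2 and limma-voom each called 2. The 1 fall in TACI long and the 2 falls in TACI short are near those shares. With library totals 1 rose and XIAP was not called in TACI short, so the falls there depend on the scaling.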
